A study of Mus musculus with 6 samples.

Results

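Serpins are a large family of proteins, most of which inhibit proteases, and their genes were followed here in tail keratinocytes of mice lacking Gpr161 in the epidermis. The family was taken as every row of the gene table whose symbol begins with Serpin, a clade letter from a to i and a digit, whatever its biotype, which gave 47 of 19618 genes. Of these, 13 belong to the Serpina3 cluster, 5 to the rest of clade a, 4 to the Serpinb3 cluster, 17 to the rest of clade b and 8 to clades c, e, f, g, h and i. The rule used symbols alone and no measured value.

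An inhibitory serpin exposes a reactive loop that its target protease cleaves, after which the serpin changes shape and traps the enzyme in an inactive complex. Clade a holds mainly secreted inhibitors and clade b mainly inhibitors that stay inside the cell, and several clade b members are abundant in stratified epithelia. In the epidermis, serine proteases of the kallikrein family and cysteine cathepsins act in shedding and in barrier formation, and serpins are among their inhibitors. Mice carry many more copies in the Serpina3 cluster than humans, where a single gene, SERPINA3, encodes antichymotrypsin.

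The study compared keratinocytes of epidermal Gpr161 knockout mice with those of control mice, all aged 4 months, by RNA sequencing of polyadenylated RNA, with 3 libraries per group. The receptor Gpr161 sits in the primary cilium and restrains Hedgehog signalling. The knockout genotype is given as K14cre+ with homozygous floxed Gpr161, so that Cre is driven by the keratin 14 promoter of basal keratinocytes and other cells in the preparation may keep the gene. The controls are listed without K14cre, 1 as homozygous and 2 as heterozygous for the floxed allele, so that no control carried Cre alone. The columns of the table name the group but not the mouse, and libraries are called here by the tags DE679, DE685 and DE688 (knockout) and DE680, DE684 and DE689 (control). Values are always given in that order. The labels do not say outright that each library is a separate mouse, and p-values measure the spread between these libraries.

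The libraries held 17157864 to 25344399 estimated counts. Levels are in CPM, the count relative to the library total on a common scale, adjusted between libraries. Of 19618 genes, 15422 passed a filter on low counts and were tested with the edgeR quasi-likelihood test, and a gene was called where its p-value, adjusted by the Benjamini-Hochberg method over all of them, was under 0.05. Gpr161 itself lay at 25.9 to 33.6 CPM in the knockout and 30.2 to 32.2 CPM in the control libraries, and a count over the whole gene does not check the removal of single exons. DE685 and DE684, 1 in each group, carried Y-linked transcripts, with 3311 and 5291 counts, against at most 3 in the other 4 libraries. Krt5 and Krt14 led the 8 markers of basal keratinocytes, which summed to 31444 to 35252 CPM in the knockout and 27353 to 32400 CPM in the control libraries. None of the 8 was called and 6 were fitted above 0. In 4 of them every knockout library lay above every control, against 12.8% of all genes tested. An unadjusted p under 0.05 was reached by 3, all higher, against 19% of all genes tested. The part of basal cells in the serpin results was not tested. Of 9 fibroblast markers, 3 rose (Dcn, Fbln1 and Postn), where 1.24% of all genes tested were called higher. The 9 summed to 928 to 1057 CPM in the knockout against 517 to 613 CPM in the control libraries. Lum and Dpt were at or under 0.351 CPM in every library. The collagens Col1a1 (-0.38), Col1a2 (-0.42) and Col3a1 (-0.54) were fitted below 0 on the log2 scale and Pdgfra at 0.04, none of them called. The part of fibroblasts in the serpin results was not tested. The 12 leukocyte markers summed to 57.4 to 142 CPM and 30.8 to 118 CPM, none was called, and the sum was lowest in DE685 and DE684 within their groups. Of 8 markers of the hair follicle outer root sheath and bulge, 2 rose (Nfatc1 and Foxc1) and 6 had an unadjusted p under 0.05. The share at such a p was 19% over all genes tested. The 8 markers summed to 1983 to 2635 CPM in the knockout against 1393 to 1777 CPM. All 7 melanocyte markers were fitted above 0, none called. The part of these cells in the serpin results was not tested. Only these whole preparations were measured, so that fewer cells of a type and less RNA per cell cannot be told apart.

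Serpina3g, Serpina3h and Serpina12, all on chromosome 12, were the serpin genes that differed between the genotypes. Serpina3g and Serpina3h rose in the knockout, by 6.06-fold and 2.80-fold, and Serpina12 fell to 0.581 of the control level. They were 3 of 39 serpin genes tested, or 7.69%, where 1.6% of all genes tested were called. Leaving out 1 library gave 1 to 6 serpins called higher and 0 to 2 called lower, and the libraries that decide a call are named with each gene. By direction, 1.24% of all genes were called higher and 0.357% lower. The other 8 serpin genes did not pass the filter and are given by their counts.

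**Figure D1:**
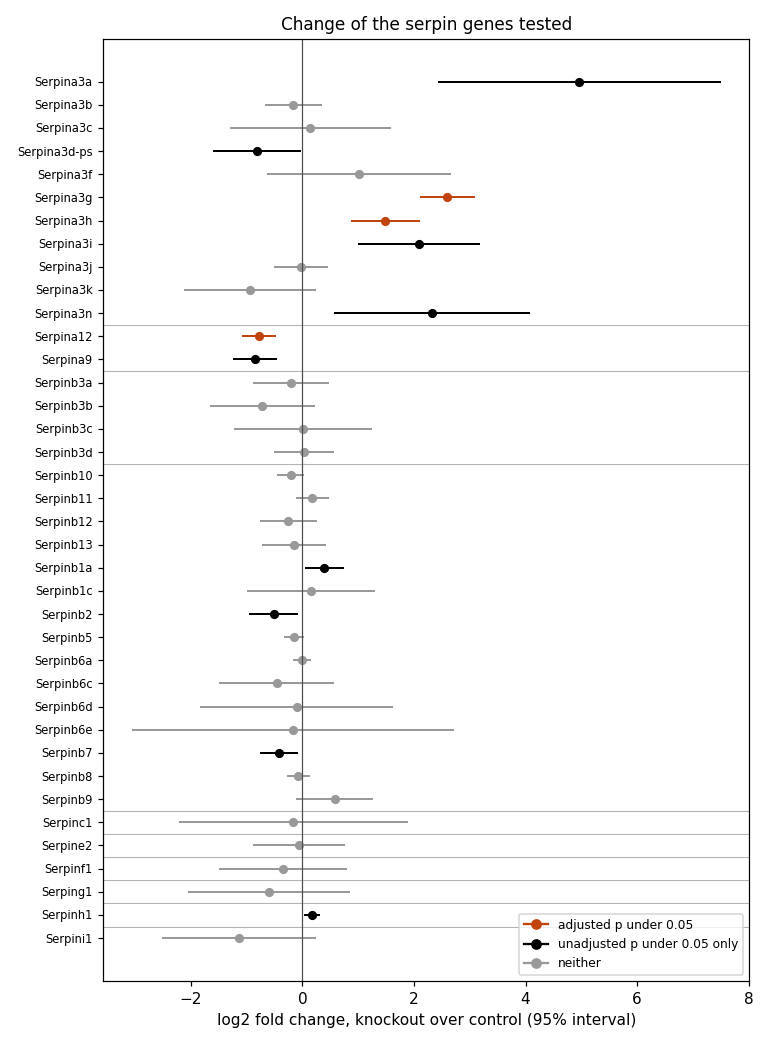
Log2 fold change, knockout over control, of serpin genes tested (x axis) by gene (y axis), grouped by clade. Points are edgeR estimates and bars 95% intervals, and the called genes Serpina3g (2.60), Serpina3h (1.48) and Serpina12 (-0.78) are all in clade a.

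The groups did not overlap for 12 of the 39 genes, 8 higher and 4 lower in the knockout, or 30.8%, against 25.6% of all genes tested (12.8% higher and 12.8% lower). The fitted change was above 0 for 14 serpin genes and below 0 for 25, with a median of -0.15 on the log2 scale. Before adjustment, 12 of the 39 had a p under 0.05, against 19% of all genes. DESeq2 called 9 serpin genes, 5 higher and 4 lower, where it called 5.7% of all genes (3.69% higher and 2.01% lower). Limma-voom called Serpina3g and Serpina12, and 1.58% of all genes (1.24% higher and 0.337% lower). With a sex covariate edgeR called 4 higher and 3 lower, and 2.65% of all genes (1.94% higher and 0.713% lower). Serpina3a passed the filter only through its knockout libraries. It is among the 8 higher without overlap and was called higher by DESeq2 and with the sex covariate.

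The Serpina genes lie close together on chromosome 12, from 103980243 to 104414329 (GRCm38). Within this stretch the direction differed from gene to gene. Serpina9 and Serpina12 at one end were lower in every knockout library than in any control. Serpina3g, Serpina3h and Serpina3i, 3 neighbours in the middle, were higher in every knockout library. Serpina3b and Serpina3j, on either side of those 3, were the most abundant serpins and overlapped between groups. The genes that flank the stretch were not called by edgeR: Ppp4r4 at 0.52 (adjusted p = 0.321), Ifi27l2a at 0.38 (0.546), Dicer1 at -0.10 (0.545) and Clmn at 0.58 (0.0841) on the log2 scale. Of these, Clmn alone had every knockout library above every control. Gm37496, which is not a serpin, lies between Serpina9 and Serpina12. It was below every control in every knockout library and not called (log2 -0.59, edgeR adjusted p = 0.257).

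**Figure D2:**
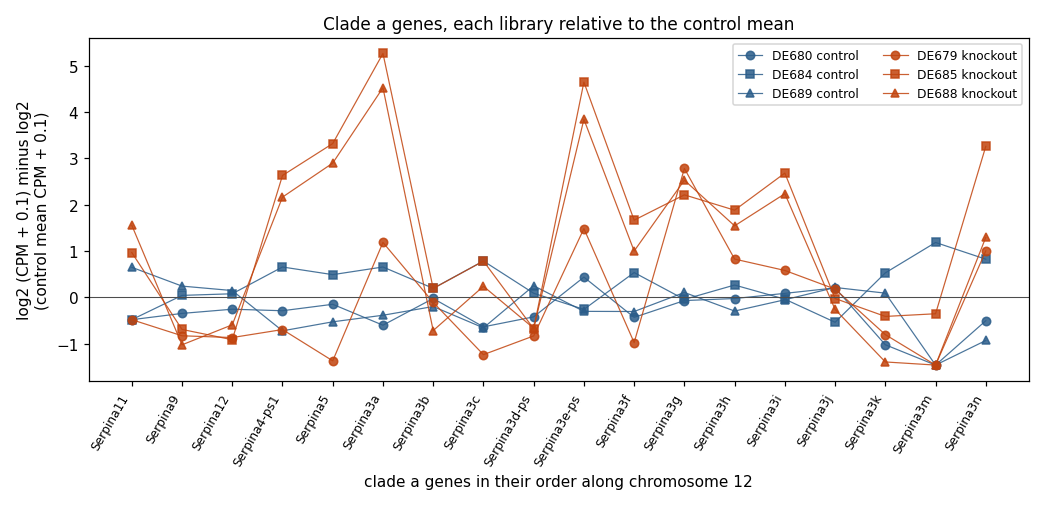
Level of each Serpina gene in each library (1 line per library) as log2 of CPM plus 0.1 relative to the control mean (y axis), with the genes in their order along chromosome 12 (x axis, rank and not distance). The knockout lines lie above the controls at Serpina3g to Serpina3i, with DE679 the lowest of the 3 at Serpina3h and Serpina3i, and they lie below the controls at Serpina9 and Serpina12, and among them at Serpina3b and Serpina3j.

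Serpina3g (chromosome 12, 104236245 to 104241939, plus strand) encodes an intracellular inhibitor of lysosomal cathepsins, known as an interferon-inducible gene of leukocytes. It was at 11.2, 7.51 and 9.37 CPM in the knockout libraries and at 1.46, 1.49 and 1.67 CPM in the controls (9.36 ± 1.84 and 1.54 ± 0.110, SD, n = 3 each). Every knockout library lay above 4 times the highest control. The log2 fold change was 2.60 (SE 0.20, 95% interval 2.12 to 3.07), with an adjusted p of 0.00186 in edgeR's quasi-likelihood test. It stayed called without any single library, at 2.46 to 2.73, and without both libraries that carry Y-linked transcripts. The leukocyte marker Ptprc was at 3.86, 1.85 and 2.14 CPM against 2.66, 0.746 and 1.67 CPM, and overlapped between groups. All 10 leukocyte markers tested had a fitted change above 0, with a median of 0.57 on the log2 scale and none at an unadjusted p under 0.05, and only Lyz2 was at 0 in any library. The part of leukocytes in the Serpina3g result was not tested.

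Serpina3h (104247905 to 104253669, plus strand), annotated as a transcribed pseudogene, lies next to Serpina3g. Its levels were 48.0, 100.0 and 79.1 CPM in the knockout and 26.6, 32.6 and 22.0 CPM in the control libraries (75.7 ± 26.1 and 27.0 ± 5.28, SD, n = 3). The lowest knockout library, DE679, was still above the highest control. The log2 fold change was 1.48 (SE 0.26, 95% interval 0.88 to 2.09, adjusted p = 0.0395 in edgeR's quasi-likelihood test). The call was lost with limma-voom (adjusted p = 0.0561), without both DE685 and DE684 (edgeR adjusted p = 0.0824) and without any 1 library other than DE679, at 1.23 to 1.64 and edgeR adjusted p of 0.0660 to 0.136. Without DE679 it was 1.73 (edgeR adjusted p = 0.0143).

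Serpina3i (104263122 to 104269372, plus strand) follows Serpina3h. The knockout libraries were at 8.48, 36.7 and 27.0 CPM and the controls at 5.99, 5.48 and 5.43 CPM. Here too DE679 was the lowest knockout library, close to the controls, and the groups did not overlap. The log2 fold change of 2.09 (SE 0.46, 95% interval 1.02 to 3.16) was not called by edgeR (adjusted p = 0.0796), and without DE679 it was 2.50 and called (adjusted p = 0.00364). DESeq2 called it with all libraries (adjusted p = 0.0102).

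The DNA just before the start of Serpina3g, Serpina3i and Serpina3f is shown because these nearby genes of the cluster share a short sequence there, with the same stretch of Serpina3b, whose groups overlapped, beside them. The sequences are the 250 bases before the start annotated by RefSeq (GRCm38.p6), all on the plus strand, at chr12:104235897-104236146 (Serpina3g), chr12:104262872-104263121 (Serpina3i), chr12:104214294-104214543 (Serpina3f) and chr12:104127746-104127995 (Serpina3b). The RefSeq start of Serpina3g is 98 bases before the start in the table, and Serpina3f has a second RefSeq start that is not shown. Capitals mark a match to TTCNNNGAA, the letters of the interferon-gamma activated (GAS) element, which reads the same on both strands in its fixed letters, or to the TATA box (TATAAA, either strand).
Serpina3g: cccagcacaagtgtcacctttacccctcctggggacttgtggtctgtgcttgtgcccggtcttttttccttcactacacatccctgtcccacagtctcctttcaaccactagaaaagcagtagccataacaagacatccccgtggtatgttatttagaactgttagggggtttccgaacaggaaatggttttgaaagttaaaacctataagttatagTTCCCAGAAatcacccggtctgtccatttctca
Serpina3i: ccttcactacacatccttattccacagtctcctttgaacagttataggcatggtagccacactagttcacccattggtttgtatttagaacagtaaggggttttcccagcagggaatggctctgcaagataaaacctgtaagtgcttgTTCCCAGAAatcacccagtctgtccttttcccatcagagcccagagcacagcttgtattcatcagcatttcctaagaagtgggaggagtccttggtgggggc
Serpina3f: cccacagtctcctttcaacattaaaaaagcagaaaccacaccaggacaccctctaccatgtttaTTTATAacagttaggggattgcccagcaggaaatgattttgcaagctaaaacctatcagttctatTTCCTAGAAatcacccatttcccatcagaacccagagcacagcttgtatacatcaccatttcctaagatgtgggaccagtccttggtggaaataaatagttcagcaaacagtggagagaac
Serpina3b: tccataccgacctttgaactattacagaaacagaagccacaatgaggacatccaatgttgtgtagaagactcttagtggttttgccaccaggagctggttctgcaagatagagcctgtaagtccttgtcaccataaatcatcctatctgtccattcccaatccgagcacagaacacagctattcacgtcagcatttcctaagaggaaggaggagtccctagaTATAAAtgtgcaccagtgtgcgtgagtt

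The match is TTCCCAGAA in Serpina3g and Serpina3i, and begins 33 and 102 bases before their starts. In Serpina3f it is TTCCTAGAA, 121 bases before the start. The letters occurred in 7.02% of 32851 RefSeq promoter windows of the same length, and in those of 6 of the 36 serpin genes that have an entry (Serpina11, Serpina3f, Serpina3g, Serpina3i, Serpinb2 and Serpinb6a). They did not follow the change in level from gene to gene. Serpina3a and Serpina3n, whose knockout libraries all lay above the controls, lacked them, and Serpina3f, which has them, overlapped between groups. The called gene Serpina3h has no entry. Aligned over their windows, Serpina3f and Serpina3i were identical at 72.0% of bases, and Serpina3b was identical to Serpina3i at 67.6% and to Serpina3f at 66.8%. The Serpina3g window gave 56.4% with Serpina3i, 53.2% with Serpina3f and 48.0% with Serpina3b. It is set 98 bases before the start in the table and the other 3 windows are not, so these values do not compare matching stretches. The 2 windows of Serpina3f itself, 89 bases apart, were identical at 64.4%. Windows of Serpina5, outside the cluster, reached 54.8% with Serpina11. The letters of the Hedgehog effector GLI (GACCACCCA, either strand) were in 0.225% of all windows and in none of the serpin windows. A match says only that the letters are there, and the motifs and windows shown were chosen after the values had been seen.

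Serpina3a, Serpina3n and Serpina3f of the same cluster had higher means in the knockout without a call in the edgeR fit by genotype alone. Serpina3a (104112724 to 104121896) was at 0.551, 10.9 and 6.50 CPM against 0.0887, 0.351 and 0.119 CPM, a log2 fold change of 4.97 (SE 1.09, 95% interval 2.45 to 7.48, edgeR adjusted p = 0.0780). DE679 was again far below the other knockout libraries, though above every control, and without it the value was 5.52 (edgeR adjusted p = 0.0102). With a sex covariate edgeR also called it (4.97, adjusted p = 0.0394), as did DESeq2 (adjusted p = 0.00172). Serpina3a, with 2, 8 and 3 counts in the control libraries, passed the filter only through its knockout libraries. Serpina3n, whose protein inhibits granzyme B and cathepsin G, was at 1.95, 9.70 and 2.41 CPM against 0.621, 1.71 and 0.436 CPM. The groups did not overlap, with the highest level in DE685, and the log2 fold change was 2.33 (SE 0.75, 95% interval 0.59 to 4.06, edgeR adjusted p = 0.164). It was called by edgeR with a sex covariate (2.23, adjusted p = 0.00991) and by DESeq2 (adjusted p = 0.00760). Serpina3f was at 0.212, 1.85 and 1.13 CPM against 0.355, 0.790 and 0.397 CPM, with overlapping groups (log2 1.01, SE 0.70, edgeR adjusted p = 0.469).

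Low members of the same stretch were not tested, and their ratios cover counting error only. The pseudogene Serpina3e-ps was at 0.382, 4.22 and 2.37 CPM against 0.133, 0.0439 and 0.0397 CPM. That is 143 counts in the knockout and 5 in the control libraries, a ratio of 30.3 (95% interval 12.7 to 94.7). Serpina5, the protein C inhibitor, was at 0, 2.48 and 1.83 CPM against 0.133, 0.263 and 0.0793 CPM, or 90 counts against 11 (ratio 8.67, 4.62 to 17.98). Serpina4-ps1 had 48 counts against 9 (ratio 5.65, 2.74 to 13.1) and was at 0.0424 CPM in DE679 against 1.33 and 0.934 CPM in the other knockout libraries. In all 3 the knockout counts came almost wholly from DE685 and DE688. Without DE679, 43 serpin genes passed the filter and edgeR called 6 higher, namely Serpina3a, Serpina3e-ps, Serpina3g, Serpina3h, Serpina3i and Serpina5, against 92 genes called in all. This set was seen only after that library had been left out, and DE679 was the lowest knockout library for each of them but Serpina3g. Leaving it out by itself raises their fitted change. Serpina3a, Serpina3e-ps and Serpina5, with at most 8, 3 and 6 counts in any control library, passed the filter only through the remaining knockout libraries. Serpina11 had 11 counts against 3 (ratio 3.88, 1.03 to 21.7), and Serpina3m had 2 against 12 (ratio 0.177, 0.0192 to 0.793), all 12 from DE684.

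Serpina3b (104127996 to 104139545, plus strand) and Serpina3j (104314553 to 104320725, plus strand) were the most abundant serpins, with 40.5% to 49.2% of all serpin counts in a library between them. Serpina3b was at 664, 816 and 435 CPM against 703, 818 and 623 CPM, a log2 difference of -0.16 (SE 0.21, 95% interval -0.65 to 0.33, edgeR adjusted p = 0.715). Serpina3j was at 926, 804 and 683 CPM against 942, 563 and 948 CPM, a log2 difference of -0.02 (SE 0.20, 95% interval -0.49 to 0.44, edgeR adjusted p = 0.962). For both, the groups overlapped, and the intervals do not reach a doubling or a halving. Per kilobase of exon they ranked first and second among the serpins, at 376 (Serpina3j) and 327 (Serpina3b) CPM per kb, ahead of Serpinb5 at 211 CPM per kb. The called genes differed in this order between the groups, which follows from the same values as their calls. Serpina3h was at 52.8 CPM per kb in the knockout (rank 5) and 18.9 CPM per kb in the control (rank 12). Serpina3g was at 4.45 (rank 21) and 0.732 CPM per kb (rank 28), and Serpina12 at 15.6 (rank 14) and 26.9 CPM per kb (rank 10).

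The rest of the cluster gave low values with no edgeR call. Serpina3c was at 0.551, 2.54 and 1.71 CPM against 0.887, 2.54 and 0.873 CPM (log2 0.14, SE 0.61, edgeR adjusted p = 0.927). Serpina3k was at 0.636, 0.866 and 0.389 CPM against 0.532, 1.75 and 1.27 CPM (log2 -0.94, SE 0.50, edgeR adjusted p = 0.351). The pseudogene Serpina3d-ps was at 0.509, 0.578 and 0.583 CPM against 0.710, 1.05 and 1.19 CPM (log2 -0.82, SE 0.33, edgeR adjusted p = 0.241). Of these, Serpina3d-ps alone had every knockout library below every control.

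The clustered copies are alike, so the split of reads among them is uncertain. Of the distinct 50-base stretches in the exons of each gene, 15.5% for Serpina3g, 21.9% for Serpina3h, 15.9% for Serpina3i and 21.6% for Serpina3e-ps also occur in another gene of the annotation, mostly of this cluster. The share was 2.92% for Serpina3b and 3.13% for Serpina3j, and 0.0537% for Serpina3a. The sum over the 13 genes, which does not depend on that split, was 1662, 1795 and 1249 CPM against 1683, 1430 and 1605 CPM. The groups overlapped, with means of 1569 ± 285 and 1573 ± 129.5 CPM (SD, n = 3) and a log2 ratio of -0.0035. Without Serpina3b and Serpina3j, a split made after the values had been seen, the other 11 genes summed to 72.5, 175 and 130.5 CPM against 37.4, 48.3 and 33.4 CPM. Here the groups did not overlap, the ratio of means was 3.17, and the 11 genes made up 4.36%, 9.75% and 10.45% of the cluster's counts in the knockout against 2.22%, 3.38% and 2.08% in the control libraries. This sum had means of 126 and 39.7 CPM, of which the called gene Serpina3h gave 75.7 and 27.0 CPM. The called rise in this cluster therefore sat in its less abundant members. Over the 11 genes of the whole cluster that were tested, Serpina3b and Serpina3j among them and Serpina3e-ps and Serpina3m not, the median log2 fold change was 1.01. Of these, 7 were above 0, 2 were called higher, and 6 had an unadjusted p under 0.05 (5 higher, 1 lower). The shares over all genes tested were 49.3% above 0, 1.24% called higher and 19% at such a p. Serpina3a, among the 7 and the 5, passed the filter only through its knockout libraries. The filter thus had a part in these counts and in the median.

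**Figure D3:**
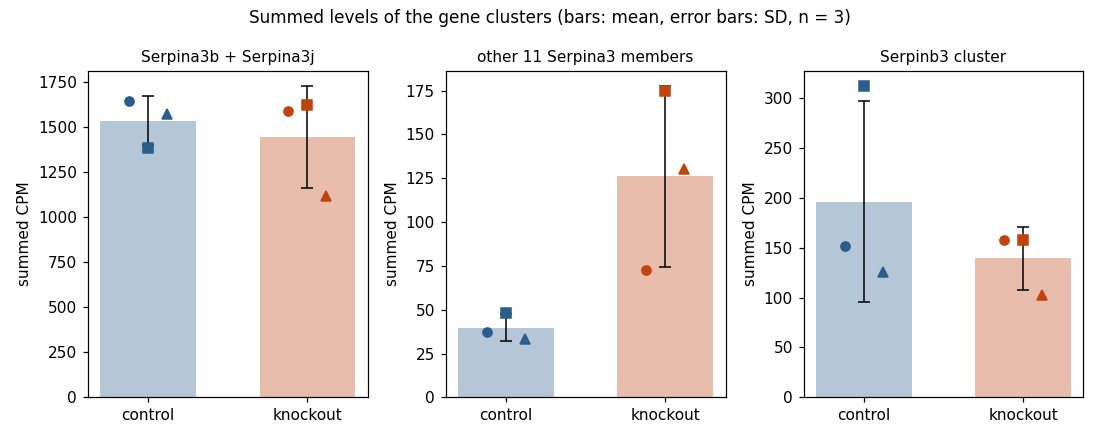
Summed CPM of Serpina3b and Serpina3j, of the other 11 Serpina3 genes and of the 4 Serpinb3 genes in each library (points), with the mean (bar) and SD (error bar) over 3 libraries per group. The 11 less abundant Serpina3 genes sum to 72.5 to 175 CPM in the knockout and 33.4 to 48.3 CPM in the control, while the other sums overlap.

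Serpina12 (104028769 to 104044443, minus strand) encodes vaspin, an adipokine that is also made in the epidermis and inhibits kallikrein 7. Its levels were 54.3, 52.6 and 65.7 CPM in the knockout and 83.1, 105 and 109.8 CPM in the control libraries (57.5 ± 7.15 and 99.2 ± 14.2, SD, n = 3). All knockout libraries lay below all controls. The log2 fold change was -0.78 (SE 0.13, 95% interval -1.08 to -0.49, adjusted p = 0.0302 in edgeR's quasi-likelihood test). The call was lost without DE679, DE685, DE684 or DE689, with values of -0.75 to -0.70 and edgeR adjusted p of 0.0759 to 0.140, and kept without DE688 or DE680. It was also lost without both DE685 and DE684 (-0.69, edgeR adjusted p = 0.135). No 50-base stretch of its exons occurs in another gene. Its target Klk7, which cuts the junctions of cornified cells, was at 215, 245 and 275 CPM against 319, 349 and 324 CPM, with no overlap (log2 -0.43, SE 0.09, edgeR adjusted p = 0.0773, not called).

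Serpina9 (103994743 to 104013755, minus strand), known as a germinal-centre B-cell gene, was at 13.02, 14.3 and 11.4 CPM against 18.2, 23.9 and 27.5 CPM. The groups did not overlap. The log2 fold change of -0.85 (SE 0.16, 95% interval -1.23 to -0.47) narrowly missed the threshold in edgeR (adjusted p = 0.0533). DESeq2 called it (adjusted p = 0.000168), and so did edgeR with a sex covariate (adjusted p = 0.0398) or without DE680 (adjusted p = 0.0396).

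Differentiated keratinocyte markers lay in the same direction as Serpina12 and Serpina9. All 10 of them had a fitted change below 0, none was called by edgeR, 5 had an unadjusted p under 0.05, DESeq2 called 3 and limma-voom 1. Among all genes tested, 19% had such a p, and DESeq2 called 2.01% and limma-voom 0.337% lower. They summed to 21646 to 28796 CPM in the knockout and 24505 to 39005 CPM in the control libraries, and none was at 0. Their part in the lower serpins was not tested.

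The promoter window of Serpina12 is shown as that of the serpin that fell, at chr12:104044444-104044693 on the minus strand (RefSeq, GRCm38.p6). It held none of the GAS, TATA, AP-1, GLI, ISRE or NF-kB letters and has no capitals.
Serpina12: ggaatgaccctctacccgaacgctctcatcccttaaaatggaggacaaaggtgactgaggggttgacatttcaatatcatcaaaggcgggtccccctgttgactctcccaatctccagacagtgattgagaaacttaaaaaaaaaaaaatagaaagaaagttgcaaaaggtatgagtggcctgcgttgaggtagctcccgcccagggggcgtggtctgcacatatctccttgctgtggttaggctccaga

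No clade b gene was called. Of the 19 tested, edgeR called none higher or lower, 3 had an unadjusted p under 0.05, DESeq2 called Serpinb2 and Serpinb7 lower, and limma-voom called none. For comparison, 19% of all genes tested had an unadjusted p under 0.05 and DESeq2 called 2.01% lower. The fitted change was above 0 for 6 and below 0 for 13, with a median of -0.15. Among the 14 serpin genes on chromosome 1, of which 12 are clade b, 11 lay below 0, where 49.3% of all genes tested lay above 0.

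Serpinb5 (chromosome 1, 106861173 to 106883348, plus strand) encodes maspin, a serpin of epithelial cells that does not inhibit proteases in the usual way. It was the most abundant clade b gene, at 568, 553 and 527 CPM against 629, 643 and 566 CPM. Only DE679 lay above the lowest control, DE689. The log2 difference was -0.16 (SE 0.07, 95% interval -0.32 to 0.00, edgeR adjusted p = 0.271). Together Serpina3b, Serpina3j and Serpinb5 made up 59.4% to 66.8% of all serpin counts in a library.

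Serpinb2 (107511423 to 107535478, plus strand), the plasminogen activator inhibitor type 2, was at 101, 149.7 and 87.1 CPM against 155, 175 and 152 CPM. Every knockout library was below every control, with DE685 close to them. The log2 difference was -0.51 (SE 0.18, 95% interval -0.93 to -0.09, edgeR adjusted p = 0.196). Without DE685 it was -0.77 and was called by edgeR (adjusted p = 0.0293), and with a sex covariate it was -0.54 and called (adjusted p = 0.0468). It shares 291 bases of annotated exon with Serpinb10, so part of its count cannot be told apart from that gene.

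Serpinb7 (107399655 to 107452689, plus strand), whose human counterpart is mutated in a keratoderma of palms and soles, was at 68.8, 51.0 and 50.3 CPM against 81.9, 80.6 and 65.8 CPM. DE679 overlapped with the lowest control. The log2 difference was -0.42 (SE 0.14, unadjusted p = 0.0168, edgeR adjusted p = 0.170). Serpinb12 was at 153, 184 and 119 CPM against 165, 237 and 142 CPM, with overlapping groups (log2 -0.25, SE 0.21, edgeR adjusted p = 0.550). Serpinb8, whose human counterpart is mutated in a peeling skin disorder, was at 85.5, 84.97 and 83.3 CPM against 91.7, 78.9 and 96.4 CPM (log2 -0.07, SE 0.08, edgeR adjusted p = 0.649).

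The promoters of this chromosome 1 group are shown because many share an AP-1 sequence, TGANTCA, which reads the same on both strands in its fixed letters. Capitals mark it, and the TATA box, before Serpinb2 (chr1:107511173-107511422, plus strand) and Serpinb7 (chr1:107422439-107422688, plus strand), the 2 genes that DESeq2 called lower. For Serpinb2 this is the first of 2 RefSeq starts, and the RefSeq start of Serpinb7 is 23034 bases inside the gene as the table places it.
Serpinb2: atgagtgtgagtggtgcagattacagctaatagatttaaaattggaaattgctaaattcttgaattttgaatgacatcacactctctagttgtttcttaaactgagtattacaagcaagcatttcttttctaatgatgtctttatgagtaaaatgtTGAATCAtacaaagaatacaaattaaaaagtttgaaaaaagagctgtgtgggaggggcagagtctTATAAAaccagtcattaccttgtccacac
Serpinb7: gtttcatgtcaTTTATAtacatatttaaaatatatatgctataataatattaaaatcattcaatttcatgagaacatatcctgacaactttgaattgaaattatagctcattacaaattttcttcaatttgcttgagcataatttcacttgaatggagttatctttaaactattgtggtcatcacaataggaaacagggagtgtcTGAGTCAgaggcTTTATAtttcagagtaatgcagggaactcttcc

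The AP-1 letters were TGAATCA, 94 bases before the start, in Serpinb2 and TGAGTCA, 45 bases before the start, in Serpinb7. They occurred in 6.75% of all 32851 windows. Of the 11 clade b genes on chromosome 1 with an entry, 7 held them (Serpinb2, Serpinb5, Serpinb7, Serpinb8, Serpinb10, Serpinb11 and Serpinb12). None of the 11 serpin genes with an entry on chromosome 12 or the 8 on chromosome 13 did, nor did Serpinc1 and Serpine2 on chromosome 1. The 7 genes with the letters included Serpinb11, fitted at 0.17, as well as genes fitted below 0.

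The Serpinb3 genes, relatives of the human squamous cell carcinoma antigens, lie within the same chromosome 1 group. Serpinb3b was at 94.8, 94.4 and 66.0 CPM against 94.2, 246 and 79.8 CPM. The control DE684 stood far above all other libraries. The log2 difference was -0.72 (SE 0.40, 95% interval -1.65 to 0.21, edgeR adjusted p = 0.369), and without DE684 it was -0.03. Serpinb3a was at 22.1, 18.1 and 13.8 CPM against 20.8, 28.9 and 12.8 CPM (log2 -0.21, SE 0.29, edgeR adjusted p = 0.734). Serpinb3d was at 40.7, 44.2 and 22.2 CPM against 35.7, 36.4 and 32.6 CPM (log2 0.03, SE 0.23, edgeR adjusted p = 0.960). Serpinb3c was low, at 0.424, 0.462 and 0.506 CPM against 0.799, 0.395 and 0.198 CPM (log2 0.02, SE 0.53, edgeR adjusted p = 0.991). All 4 overlapped between groups. Of the 50-base stretches in their exons, 12.2% to 15.04% occur in another gene, so the sum is the safer value. It was 158, 157 and 102 CPM against 151, 311 and 125 CPM, a log2 ratio of -0.49 that became 0.0080 without DE684. None of the 4 was called by edgeR, DESeq2 or limma-voom, and none had an unadjusted p under 0.05.

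**Figure D4:**
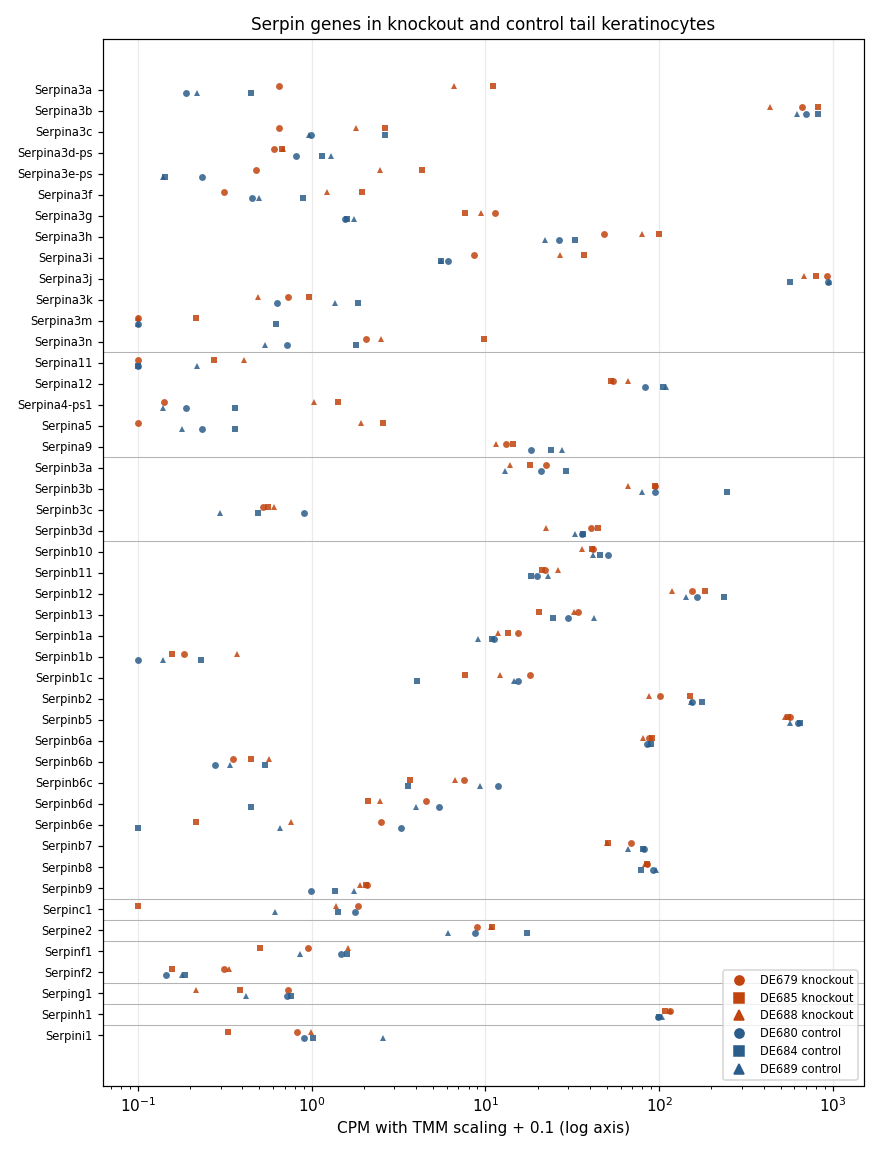
CPM plus 0.1 (log axis) of serpin genes in each of the 6 libraries, with knockout and control libraries in separate colours and 1 gene per row. Serpina3j, Serpina3b and Serpinb5 stand highest in all libraries, and the libraries of Serpina3g separate, at 7.51 to 11.2 CPM against 1.46 to 1.67 CPM.

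Of the 7 clade b genes tested on chromosome 13, edgeR, DESeq2 and limma-voom called none. Serpinb1a alone had an unadjusted p under 0.05, against 19% of all genes tested. Serpinb6a, an inhibitor of cathepsin G, was at 87.6, 90.9 and 81.1 CPM against 84.6, 89.2 and 86.8 CPM (log2 -0.01, SE 0.06, 95% interval -0.15 to 0.14, edgeR adjusted p = 0.969). Serpinb1a, an inhibitor of neutrophil elastase, was at 15.4, 13.3 and 11.7 CPM against 11.1, 10.7 and 8.93 CPM (log2 0.39, SE 0.14, edgeR adjusted p = 0.203). Serpinb9, an inhibitor of granzyme B, was at 1.99, 1.96 and 1.79 CPM against 0.887, 1.27 and 1.67 CPM (log2 0.58, SE 0.29, edgeR adjusted p = 0.322). For both Serpinb1a and Serpinb9 every knockout library was above every control.

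Serpinb1c and Serpinb6c to Serpinb6e on the same chromosome were low in the 2 libraries with Y-linked transcripts. Serpinb1c was at 17.9, 7.57 and 12.02 CPM against 15.3, 3.95 and 14.5 CPM. Serpinb6c was at 7.42, 3.58 and 6.57 CPM against 11.7, 3.47 and 9.20 CPM. DE685 and DE684, the second library of each group, were the lowest in both genes. Serpinb6d was at 4.45, 2.02 and 2.37 CPM against 5.32, 0.351 and 3.89 CPM, and Serpinb6e at 2.42, 0.116 and 0.661 CPM against 3.15, 0 and 0.555 CPM. In each of these 4 genes DE685 was the lowest knockout and DE684 the lowest control library, a pattern noticed in the data and shared by the leukocyte markers. With 1 such library per group, a difference by sex was not tested, and the part of leukocytes was not tested. By genotype, none of the 4 was called by edgeR, with fitted changes of -0.46 (Serpinb6c) to 0.16 (Serpinb1c). Serpinb1b and Serpinb6b were not tested, with 10 counts against 4 and 24 against 20.

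**Figure D5:**
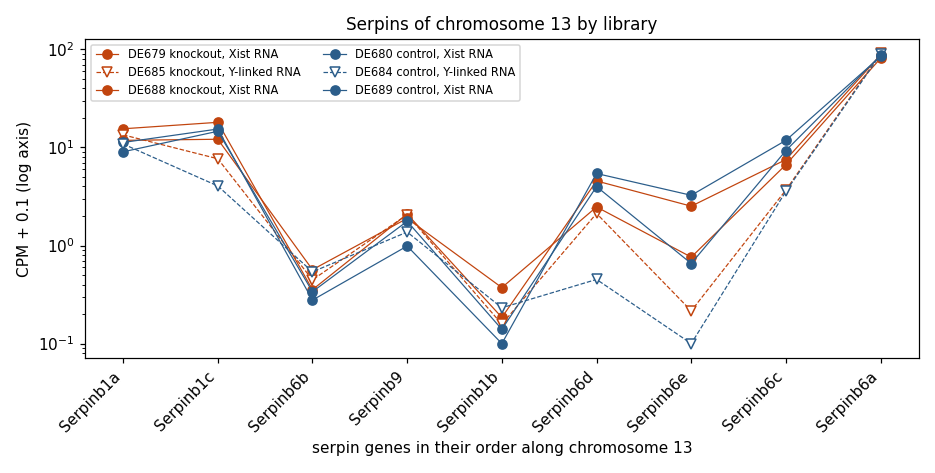
CPM plus 0.1 (log axis) of the chromosome 13 serpin genes in each library, with the 2 libraries that carry Y-linked transcripts, DE685 (knockout) and DE684 (control), marked. They are the lowest of their groups for Serpinb1c, Serpinb6c, Serpinb6d and Serpinb6e, and the highest of their groups for Serpinb6a.

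The other clade b genes on chromosome 1 overlapped between groups. Serpinb10, the serpin whose exon overlaps Serpinb2, was fitted at -0.21 (edgeR adjusted p = 0.281). Serpinb11 was at 0.17 (edgeR adjusted p = 0.468), and Serpinb13, an inhibitor of cathepsin L, at -0.15 (edgeR adjusted p = 0.778).

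Of the 7 genes tested in clades c to i, edgeR, DESeq2 and limma-voom called none. Serpinh1 alone had an unadjusted p under 0.05, against 19% of all genes tested. Serpinh1 (chromosome 7, 99345376 to 99353239, minus strand), the collagen chaperone of the endoplasmic reticulum, was at 115, 109 and 115 CPM against 97.9, 100.1 and 103 CPM. All knockout libraries were above all controls by a small step. The log2 difference was 0.17 (SE 0.05, 95% interval 0.04 to 0.29, unadjusted p = 0.0160, edgeR adjusted p = 0.167). Per kilobase it was at 46.1 CPM per kb in the knockout and 41.1 CPM per kb in the control.

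Serpine2, or protease nexin, an inhibitor of thrombin and urokinase, was at 8.86, 10.9 and 10.7 CPM against 8.65, 17.2 and 5.99 CPM (log2 -0.07, SE 0.35, edgeR adjusted p = 0.940). The groups overlapped, and the control DE684 was the highest library.

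Serpins best known from plasma or other tissues were low, at or under 2.46 CPM. Serpinf1, pigment epithelium-derived factor, was at 0.848, 0.404 and 1.52 CPM against 1.38, 1.49 and 0.754 CPM (log2 -0.35, SE 0.49, edgeR adjusted p = 0.741). Serping1, the inhibitor of complement C1, was at 0.636, 0.289 and 0.117 CPM against 0.621, 0.658 and 0.317 CPM (log2 -0.60, SE 0.62, edgeR adjusted p = 0.637). Serpini1, neuroserpin, was at 0.721, 0.231 and 0.895 CPM against 0.799, 0.921 and 2.46 CPM (log2 -1.14, edgeR adjusted p = 0.333). These 3 overlapped between groups. Serpinc1, antithrombin, was at 0 to 1.74 CPM and shares annotated exon with Zbtb37 on the other strand. Serpinf2, the inhibitor of plasmin, had 12 counts against 5 and was not tested. A floor of 3 counts stands for 0.117 to 0.173 CPM in these libraries.

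Proteases that serpins act on, and partners of Serpinh1, were read from fixed lists, and edgeR called no gene of any list. The counts at an unadjusted p under 0.05 are to be read against the 19% of all genes tested that reached it, and those of DESeq2 against its 5.7%. Of 7 tested genes of plasminogen activation, 3 had an unadjusted p under 0.05, all higher (Plat, F2r and Thbd), DESeq2 called 1 and limma-voom none, and the median log2 change was -0.02. The most abundant were Anxa2 (977 ± 79.8 and 1008 ± 89.0 CPM) and Lrp1 (242 ± 8.78 and 246 ± 14.6 CPM). Of 11 epidermal serine proteases tested, 4 had an unadjusted p under 0.05, with St14 and Hpn higher and Klk5 and Klk7 lower. DESeq2 called 1 and limma-voom none, with a median of 0.07. Beside Klk7, the most abundant was St14, matriptase, at 88.4 ± 4.19 and 77.4 ± 5.24 CPM.

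Of 10 cysteine proteases tested, 2 had an unadjusted p under 0.05, both higher, DESeq2 called 1 and limma-voom none (median 0.01). Cathepsin B (Ctsb) was at 305, 307 and 308 CPM against 262, 280.5 and 251 CPM (log2 0.21, edgeR adjusted p = 0.129) and cathepsin L (Ctsl) at 169 ± 38.7 and 177 ± 30.6 CPM. All 4 complement and contact proteases tested had an unadjusted p under 0.05 and were higher, with a median of 1.64, and DESeq2 called 1 and limma-voom none. C1s1 was at 16.2, 44.3 and 25.2 CPM against 12.8, 20.8 and 11.3 CPM, and C1ra at 6.87, 20.5 and 10.1 CPM against 5.55, 7.90 and 5.36 CPM. In both, DE685 was the highest library and the groups overlapped. The other 2, C1s2 (log2 2.30, SE 0.73, edgeR adjusted p = 0.161) and Masp1 (log2 3.14, SE 0.85, edgeR adjusted p = 0.115), were low. Their means were 1.82 and 0.360 CPM and 0.914 and 0.103 CPM, and every knockout library was above every control. Masp1, with controls at 0.0444, 0.263 and 0 CPM, passed the filter only through its knockout libraries. The controls of C1s2 were also low, at 0.444, 0.439 and 0.198 CPM. The filter thus had a part in the count of 4 and in the median, and 3 more genes of the list were not tested. Of 21 collagen folding genes tested, 6 had an unadjusted p under 0.05 (5 higher), DESeq2 called 3 and limma-voom none (median -0.01), and the most abundant, P4hb and Ppib, overlapped between groups. Of 11 leukocyte and mast cell serine proteases, only Prtn3 and Gzmc have a row, both at or under 0.551 CPM and not tested.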

How the data were processed

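RNA of tail keratinocytes was sequenced from 3 knockout and 3 control libraries, made with a stranded kit per the labels' protocols. The submitters' processing notes name bcl2fastq 2.20, cutadapt 1.18, STAR 2.7.0f, Partek and the build mm10. The counting tool, the annotation and the use of strand are not given in the sources used here. The authors deposited estimated counts per gene, of which 53.0% to 57.7% per library are whole, with no row summing to under 10. The deposited normalized signal equals count times a library constant plus 0.001.

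Columns were assigned to groups by name. Counts were rounded and tested in R 4.3.3 with edgeR 4.0.16 (filterByExpr, TMM factors, glmQLFit and glmQLFTest, genotype as the only term, two-sided). The design had foreseen whole counts, and its test was used on the rounded values. Benjamini-Hochberg adjustment ran over 15422 genes. An exact permutation test of 3 against 3 cannot go below 0.1. Standard errors were taken as the log2 change over the root of F. Exons and 50-base stretches were read from the GENCODE M21 annotation of GRCm38, whose starts match the table, and promoters from RefSeq, with 36 serpin genes matched. Totals give counting error only.

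Given in full were called serpins, the 12 highest, both clusters, some fixed genes and those with an unadjusted p under 0.05. The values of 1 serpin gene are not reported here, and counts over the family include it. The members and lists were chosen with earlier results of these data known. The alternatives were other factors (RLE, upper-quartile), no filter or a filter at a mean of 1 CPM, the Wald test of DESeq2 1.42.0, limma-voom (3.58.1), limma on log2 of the authors' normalized signal plus 1, a sex covariate read from Xist and Y-linked genes, and each library left out. Leaving out DE685 and DE684 together was added after seeing the data. The fit was tested on simulated data.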

Additional observations from a re-analysis of the deposited data

How the results depend on the processing

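No paired analysis was possible because the columns carry no replicate numbers. The serpin calls, 2 higher and 1 lower, were the same genes with RLE or upper-quartile factors, without the filter, with a mean of at least 1 CPM and on the authors' normalized signal. Serpins called higher were 5 with DESeq2, 4 with the sex covariate, and 1 with limma-voom or without DE685 and DE684. Those called lower were 4 with DESeq2 and 3 with the sex covariate. Over all genes, 247 calls became 879 with DESeq2, 409 with the sex covariate and 87 without DE685 and DE684. Leaving out 1 library gave 1 to 6 serpins higher (6 without DE679), 0 to 2 lower (0 without DE679, DE684 or DE689) and 69 to 121 genes in all. The cause was not tested, except that fewer libraries were fitted.

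The Serpina3 median of 1.01 was 1.79 with a mean of at least 1 CPM, 0.59 with limma-voom, 0.37 on the authors' signal and 0.40 to 1.52 without 1 library (0.40 without DE685). The median of the other clade a genes was -0.78 on the authors' signal and -0.95 to -0.71 without 1 library. That of clade b outside the Serpinb3 cluster was -0.25 to -0.0112, and that of the cluster -0.41 to 0.011. The Serpinb3 sum ratio of -0.49 was -0.0881 without DE685 and DE684 and -0.73 to 0.0080 without 1 library.

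No member that reversed was called in any fit. Serpina3j was 0.0045 with limma-voom, 0.00065 on the authors' signal and 0.014 with the sex covariate. Serpinb3d was -0.0620 with limma-voom, -0.0304 on the authors' signal and -0.12 without DE685 and DE684. Serpinb6a was 0.011 with upper-quartile factors. Serpine2 was 0.0813 with limma-voom, 0.0470 on the authors' signal, 0.0527 with the sex covariate and 0.42 without DE685 and DE684, where Serpinb3a was 0.10, Serpinb3c -0.0761 and Serpinf1 0.16. Without 1 library, 8 members crossed 0: Serpina3b (-0.38 to 0.0493), Serpina3c (-0.33 to 0.84), Serpina3j (-0.23 to 0.10), Serpinb3a (-0.46 to 0.10), Serpinb3c (-0.35 to 0.65), Serpinb3d (-0.15 to 0.28), Serpinb6a (-0.0440 to 0.0384) and Serpine2 (-0.35 to 0.47). DESeq2 gave no adjusted p for Serpinb3c and Serping1. Depth limits the 8 untested genes.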
